A study of Mus musculus with 27 samples.

Results

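The acute-phase proteins described here are the products of 10 mouse genes: the serum amyloid A genes Saa1, Saa2, Saa3 and Saa4, the lipocalin Lcn2, the haem and haemoglobin binders Hp and Hpx, the orosomucoids Orm1 and Orm2, and the pentraxin Apcs. They were taken by symbol from the liver RNA-seq count table, in which these 10 were found among 55414 genes. All 10 averaged 10 counts or more a library and so were among the 14114 genes tested. The libraries came from whole liver of 27 young adult female Balb/c mice in 8 groups. Control mice (n = 4) received olive oil into the peritoneum and PBS into the tail vein, and the other groups without injury received 4-methylumbelliferone by daily gavage (4MU, n = 3; an inhibitor of hyaluronan synthesis), lipid nanoparticles carrying a luciferase siRNA (siLuc-LNP, n = 3; the non-targeting control) or nanoparticles carrying an siRNA to hyaluronan synthase 2 (siHAS2-LNP, n = 3). The injured groups received carbon tetrachloride into the peritoneum for a fortnight, a toxin that hepatocytes convert to radicals and that leads to fibrosis, alone (CCl4, n = 2) or with the same agents (CCl4 + 4MU, n = 4; CCl4 + siLuc-LNP, n = 4; CCl4 + siHAS2-LNP, n = 4). Nanoparticles went into the tail vein 2 times a week, and no group received empty nanoparticles. Per the study's methods, control mice were also given by gavage the carboxymethyl cellulose in which 4MU was mixed. Both 4MU and nanoparticles were started 2 days ahead of the first CCl4 injection.

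Acute-phase proteins are plasma proteins, made mainly by hepatocytes, whose levels change within hours of infection or injury. Interleukin 6 acting through STAT3, and interleukin 1 acting through NF-kB and the C/EBP factors, drive their transcription in the hepatocyte. Saa1 and Saa2 ride on high-density lipoprotein and are the most inducible members in mice, Saa4 is the constitutive member of that family, and Saa3 is made in macrophages and fat as well as in liver. Lcn2 withholds iron from bacteria by binding their siderophores. Haptoglobin (Hp) binds free haemoglobin, hemopexin (Hpx) binds free haem, the orosomucoids (alpha-1-acid glycoproteins) carry drugs and dampen inflammation, and Apcs, serum amyloid P, is the main pentraxin of the mouse acute phase.

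The 4 serum amyloid A genes lie together on mouse chromosome 7. In GRCm39, the build that was used to count the reads, Saa3 spans chr7:46361422-46365576, Saa4 chr7:46377406-46382035 and Saa1 chr7:46389916-46392547, all on the minus strand, and Saa2 lies next to them at chr7:46401214-46403737 on the plus strand. Hpx is on the same chromosome at chr7:105240817-105249344. Orm1 (chr4:63261052-63272189) and Orm2 (chr4:63280686-63284115) are neighbours on chromosome 4, and Lcn2 (chr2:32274645-32278264), Hp (chr8:110301759-110305804) and Apcs (chr1:172721528-172722611) stand alone. All 10 are protein-coding genes.

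Neighbours of recent origin share sequence, which matters for what the counts can tell apart. In the Ensembl canonical transcripts, 2.2% of the 85-base stretches of Saa1 occurred unchanged in a Saa2 transcript and 3.2% of those of Saa2 in a Saa1 transcript. The same share was 10.4% for Orm1 and 12.2% for Orm2, each toward the other, and 0.0% for the other 6 genes. Reads that matched several places were not counted, so values of these gene pairs may leave out reads from their identical stretches. Sequencing was paired-end while single stretches were searched, and how many reads were left out was not measured. The upstream sequences of the pair Saa1 and Saa2 were also close: over the 250 bases before the start site, 94.8% of aligned positions were identical, against 48.5% between Saa1 and Saa3. The 250 bases before the start site are printed for Saa1 and Saa2, which varied most between mice, and for Saa3 and Lcn2, which rose with CCl4. They were taken from RefSeq on GRCm38.p6, 5′ to 3′ on the gene's strand, with matches to the C/EBP motif TTGCNNAA on either strand in capitals. In that build they lie at chr7:46742981-46743230 (Saa1, minus strand), chr7:46751583-46751832 (Saa2, plus strand), chr7:46715677-46715926 (Saa3, minus strand) and chr2:32387740-32387989 (Lcn2, minus strand).
Saa1: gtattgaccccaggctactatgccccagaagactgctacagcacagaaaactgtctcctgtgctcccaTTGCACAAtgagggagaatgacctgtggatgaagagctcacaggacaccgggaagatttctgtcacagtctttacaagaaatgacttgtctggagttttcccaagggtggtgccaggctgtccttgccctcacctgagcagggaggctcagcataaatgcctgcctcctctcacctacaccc
Saa2: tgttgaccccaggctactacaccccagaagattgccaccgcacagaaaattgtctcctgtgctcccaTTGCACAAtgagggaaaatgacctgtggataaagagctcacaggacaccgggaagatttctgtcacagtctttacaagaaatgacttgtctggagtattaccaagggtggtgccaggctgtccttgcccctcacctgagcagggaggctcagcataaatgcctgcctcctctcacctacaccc
Saa3: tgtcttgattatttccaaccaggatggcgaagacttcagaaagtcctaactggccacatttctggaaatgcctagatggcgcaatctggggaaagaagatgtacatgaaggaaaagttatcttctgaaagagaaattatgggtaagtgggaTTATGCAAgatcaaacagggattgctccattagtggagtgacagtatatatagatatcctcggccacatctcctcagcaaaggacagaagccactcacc
Lcn2: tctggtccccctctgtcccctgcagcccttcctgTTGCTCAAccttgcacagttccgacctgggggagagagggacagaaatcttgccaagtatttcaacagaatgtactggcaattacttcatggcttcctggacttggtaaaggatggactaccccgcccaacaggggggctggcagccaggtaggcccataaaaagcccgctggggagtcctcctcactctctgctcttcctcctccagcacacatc

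Promoters of 8 of the 10 genes were in the RefSeq table, all but Hp and Orm1. The C/EBP motif was present in 7 of these 8, in a window of 300 bases from 250 before to 50 after the start site, and in 10.8% of all 32851 promoters searched in the same way. Apcs was the member without a match. The STAT motif TTCNNNGAA was present in 1 of the 8 (Apcs) and in 8.3% of all promoters, and the looser NF-kB motif (GGG and CC with 5 bases of any kind between them) in 4 of the 8 and in 50.8% of all. Both strands were searched, no match of 1 motif was removed for overlap with another, and the matches describe letters in the window, not binding.

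Library totals ran from 7044386 counts (CCl4 + siHAS2-LNP mouse 4) to 29425937, and the other 26 libraries held at least 18146198. The 10 genes together took 1.01% to 2.37% of all counts in a library, and the lowest single value among the members was 66 counts, so counting error was small beside the spread between mice. Has2, the target of the siRNA, had 0 counts in 25 of 27 libraries and at most 2, so its knockdown could not be checked here. Levels are given in CPM, the count relative to the library's total, scaled by the trimmed mean of M-values. Hepatocyte markers were abundant in every library, the 8 listed ones summing to 77820 to 205300 CPM. Control mouse 2 was highest of its group in 9 of the 10 members (all but Saa3), and siHAS2-LNP mouse 2 in 9 of 10 (all but Saa4). Results that rest on these mice are given with and without them, a choice made after the values were seen.

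Per kilobase of transcript, the haemoglobin and haem binders were the most abundant members and Saa3 the least. The median over 27 mice was 3776 CPM per kilobase for Hpx and 3753 for Hp. Orm1 (980.3) and Apcs (889) followed, then Lcn2 (359), Saa4 (144), Saa1 (104.5), Orm2 (64.6), Saa2 (51.9) and Saa3 (14.7), and the ranges of neighbours in this order overlapped in every case. Saa2 and Saa1 spanned the widest ranges between mice, 642-fold from the lowest to the highest CPM for Saa2 and 321-fold for Saa1. Hpx spanned 2.56-fold and Hp 3.21-fold, the narrowest of the 10.

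**Figure D1:**
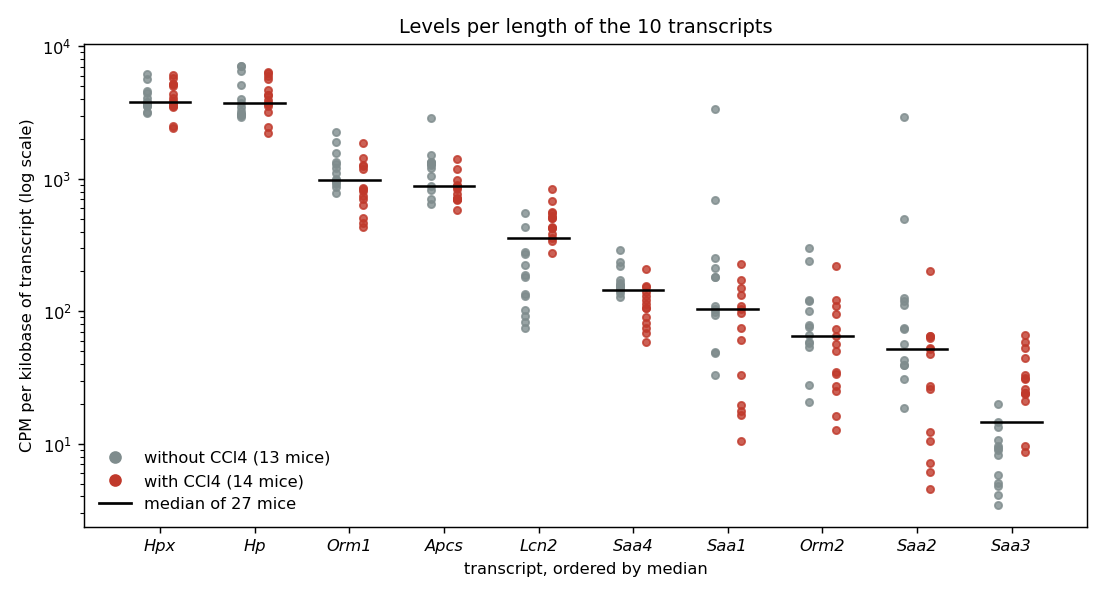
Level of each of the 10 transcripts in CPM per kilobase of canonical transcript (y axis, log scale), ordered along the x axis by the median of 27 mice (black lines); grey points are the 13 mice without CCl4 and red points the 14 mice with it. Hpx and Hp stand at the top with medians of 3776 and 3753, Saa3 at the bottom with 14.7, and single grey points of Saa1 and Saa2 lie far above the rest.

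The first question was what injury did to these transcripts, averaged over the 4 arms (no agent, 4MU, siLuc-LNP, siHAS2-LNP), each CCl4 group set against its own group without CCl4. Saa3 and Lcn2 rose, while Saa1, Saa2, Saa4, Orm1 and Apcs fell. Thus 7 of 10 members passed an adjusted p of 0.05 (quasi-likelihood F test in edgeR, adjusted across the 14114 genes by the Benjamini-Hochberg method), 2 higher and 5 lower, where 51.7% of all tested genes passed. The median log2 fold change was -0.53 over the members and -0.015 over all tested genes. In whole liver, fewer cells of a type and less RNA per cell cannot be told apart. Without control mouse 2 and siHAS2-LNP mouse 2, 5 members passed, all among the 7, with Saa1 and Saa2 lost. Orm1 did not pass when the 14 mice with CCl4 were set against the 13 others without regard to arm (-0.42, adjusted p = 0.0904).

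**Figure D2:**
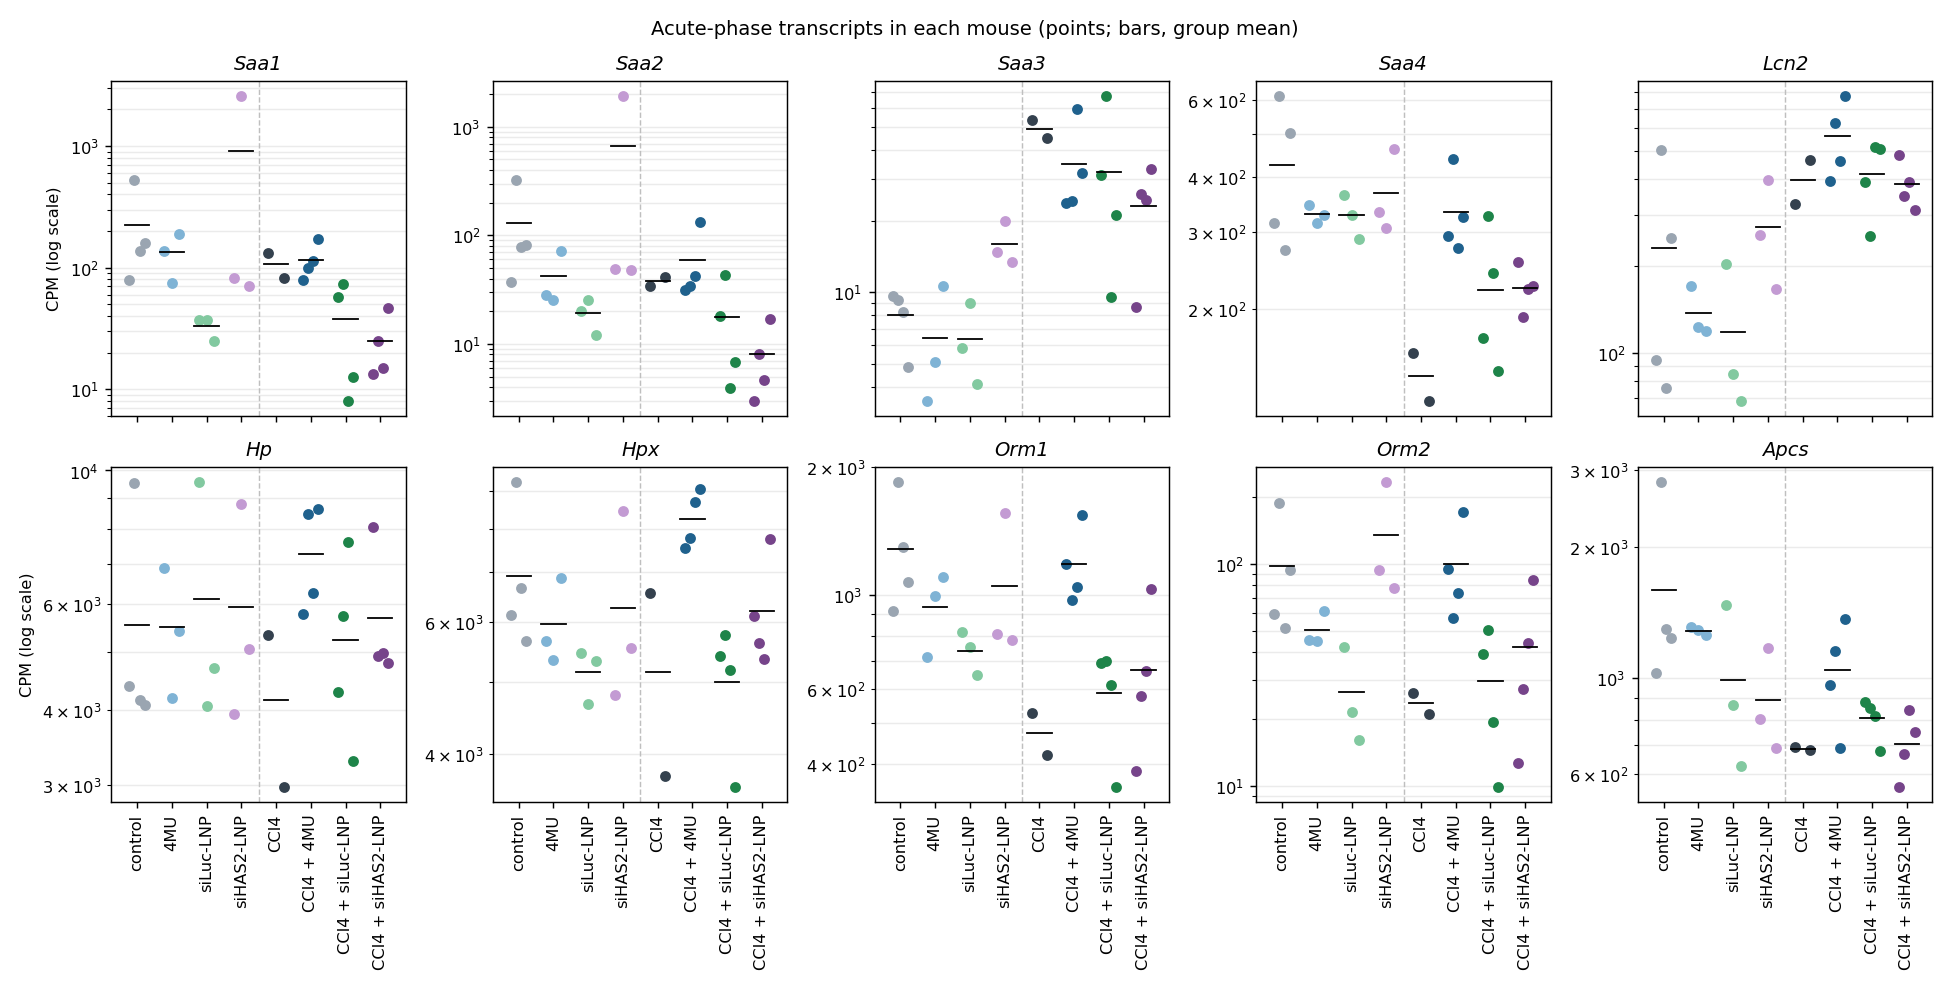
CPM (y axes, log scale) of each transcript in every mouse (points), by group (x axis), with the group mean as a black bar; the dashed line parts the groups without and with CCl4. Saa3 reaches 44.9 to 53.1 in the CCl4 group against 4.87 to 9.67 in controls, and 1 siHAS2-LNP mouse stands at 2565 for Saa1 and 1910 for Saa2.

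Saa3 showed the largest rise. Controls held 9.67, 9.33, 8.29 and 4.87 CPM, and the CCl4 group 53.1 and 44.9. The 4MU group held 3.48, 5.08 and 10.7 CPM, and CCl4 + 4MU 23.8, 24.3, 59.5 and 31.9. In the siLuc-LNP group the values were 5.84, 9.06 and 4.13, and in CCl4 + siLuc-LNP 31.2, 67.1, 9.61 and 21.1. In these 3 arms every mouse with CCl4 was above every mouse of its own comparison group. The siHAS2-LNP mice differed from that, at 14.8, 19.9 and 13.5 CPM without CCl4 and 8.69, 26.0, 24.5 and 33.1 with it, and the ranges overlapped. Saa3 was higher by 2.61 ± 0.56 (log2 fold change with its SE, as in all later tests) in CCl4 against control (adjusted p = 0.00119), by 2.45 ± 0.56 in the 4MU arm (adjusted p = 0.00327) and by 2.36 ± 0.56 in the siLuc-LNP arm (adjusted p = 0.00417). In the siHAS2-LNP arm the difference was 0.50 ± 0.52 (adjusted p = 0.583). The test of the difference between the siHAS2-LNP arm and the arm without agent gave -2.11 ± 0.76 (adjusted p = 0.101), so the arms were not shown to differ. Over the 4 arms Saa3 rose by 1.98 ± 0.28 (adjusted p = 4.03e-06), and 12 of 14 mice with CCl4 stood above all 13 without it.

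The transcripts of monocytes and recruited macrophages, cells that can make Saa3, moved in the same direction. All 10 of the 10 listed markers (among them Ccr2, Lyz2, Trem2 and Gpnmb) passed with a rise in the averaged comparison, where 51.7% of tested genes passed. By arm, 10 passed against control (33.9% of tested genes passed), 10 with 4MU (23.6%), 4 with siLuc-LNP (24.1%) and 3 with siHAS2-LNP (12.7%), all higher. In the siHAS2-LNP by CCl4 interaction 5 of the 10 passed, all lower, where 6.36% of tested genes passed. The summed level of the 10 markers was 70.3 to 256 CPM in the 13 mice without CCl4 and 296 to 1255 in the 14 with it, with no overlap, and Gpnmb was at 0 counts in 1 library. Spp1, with 455 to 17287 counts per library, is in this list and also among the cholangiocyte markers below. The sums of both lists therefore share it and are not separate. Of the 9 Kupffer cell markers, 5 passed, all lower, with sums of 240.2 to 703 CPM without and 195 to 754 with CCl4, and 3 passed without CCl4 mouse 1 or siLuc-LNP mouse 3. The arms differed in the Kupffer cell markers. With 4MU 6 passed, 5 higher and 1 lower (23.6% of tested genes passed), and against control 2 passed, 1 higher and 1 lower (33.9%). With siLuc-LNP 3 passed (24.1%) and with siHAS2-LNP 7 (12.7%), all lower. The part of monocytes and macrophages in the rise of Saa3 was not tested.

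Lcn2 rose in the 4MU and siLuc-LNP arms. The values in the 4MU group were 171, 123 and 119 CPM, against 395, 623, 461 and 773 with CCl4. In the siLuc-LNP group they were 203, 84.7 and 68.1, against 389, 254, 514 and 506 with CCl4. In both arms the groups did not overlap, and Lcn2 was higher by 2.03 ± 0.52 (adjusted p = 0.00653) and 1.81 ± 0.51 (adjusted p = 0.0125), the latter losing its call without siLuc-LNP mouse 2 (1.64) or mouse 3 (1.53). Controls held 94.3, 505, 75.5 and 249 CPM, the second above both CCl4 mice (329 and 464). The difference from control, 0.78 ± 0.54, did not pass (adjusted p = 0.271), and without control mouse 2 and siHAS2-LNP mouse 2 it was 1.52 (adjusted p = 0.014). In the siHAS2-LNP arm, mice without CCl4 held 255, 398 and 166 CPM and those with it 483, 350, 391 and 313, a difference of 0.49 ± 0.49 (adjusted p = 0.562). Averaged over the arms Lcn2 rose by 1.28 ± 0.25 (adjusted p = 0.000225), and by 1.55 (adjusted p = 3.69e-06) without those 2 mice.

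Neutrophils store Lcn2 protein in their granules. Of 13 neutrophil markers, 11 were tested and 2 passed in the averaged comparison, where 51.7% of tested genes passed. They were Csf3r (0.59 ± 0.16, adjusted p = 0.00401) and Mmp9 (0.59 ± 0.22, adjusted p = 0.0285). Mmp9 did not pass without 4MU mouse 2, CCl4 mouse 1, CCl4 + siHAS2-LNP mouse 1 or siLuc-LNP mouse 2 (highest adjusted p = 0.0926), and the count ran from 1 (without CCl4 + siHAS2-LNP mouse 1) to 5 (without 4MU mouse 3). The summed neutrophil level was 8.94 to 108 CPM without CCl4 and 16.0 to 66.4 with it, and the granulocyte-defining marker Ly6g had 0 to 17 counts per library. In control mouse 2, which was high in Lcn2, the sum was 61.8 CPM, the highest of the controls (median 33.3). In the 4MU arm 3 of the 11 markers passed, all higher, where 23.6% of tested genes passed. Their median log2 fold change there was 1.41, and the sums were 8.94 to 38.5 CPM without and 34.6 to 66.4 with CCl4. In each other arm 0 passed, with medians of 0.11 against control, -0.29 with siLuc-LNP and -0.64 with siHAS2-LNP. The part of neutrophils in the level of Lcn2 was not tested.

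Saa4, the constitutive serum amyloid A, moved the other way from Saa3, its neighbour on the chromosome. Controls held 314, 611, 273 and 503 CPM, and the CCl4 mice 159 and 123. Both CCl4 mice were below every mouse without CCl4 in any group, whose lowest value was 273. Saa4 fell by 1.59 ± 0.31 on the log2 scale against control (adjusted p = 0.000373), and by 0.71 ± 0.13 over the 4 arms (adjusted p = 8.68e-05). The siLuc-LNP arm (365, 328 and 289 CPM without, 172, 327, 242 and 144 with CCl4) and the siHAS2-LNP arm (333, 306 and 464 without, 256, 191, 222 and 225 with CCl4) gave a log2 difference of -0.57 ± 0.26 (adjusted p = 0.107) and -0.72 ± 0.25 (adjusted p = 0.0648). With 4MU the groups overlapped, at 345, 315 and 327 CPM without CCl4 and 294, 439.7, 276 and 324 with it.

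The orosomucoids and serum amyloid P were also lower in the CCl4 group. Orm1 stood at 915, 1846, 1298 and 1071 CPM in controls and at 527 and 419 after CCl4, a fall by 1.44 ± 0.37 (log2, adjusted p = 0.00377). Orm2 stood at 59.4, 187, 51.2 and 93.2 CPM in controls and at 26.2 and 21.1 after CCl4, and fell by 2.05 ± 0.76 (adjusted p = 0.0436). Apcs stood at 1024, 2818, 1293 and 1235 CPM in controls and at 692 and 682 after CCl4, and fell by 1.21 ± 0.35 (adjusted p = 0.00992). For all 3 the CCl4 mice were below every control. Some of these calls were lost under an alternative: Orm2 did not pass without control mouse 2 (-1.51), control mouse 4 (-2.06), CCl4 mouse 1 (-2.19) or CCl4 mouse 2 (-1.87), nor with no low-count filter (-2.03, adjusted p = 0.104), Apcs not without CCl4 mouse 1 (-1.21) or mouse 2 (-1.18), and Orm1 not without CCl4 mouse 2 (-1.26). Over the 4 arms Orm1 fell by 0.52 ± 0.16 (adjusted p = 0.00713) and Apcs fell by 0.53 ± 0.15 (adjusted p = 0.00524), while Orm2 gave -0.65 ± 0.32 (adjusted p = 0.0918).

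In the other arms the ranges of these 3 transcripts overlapped between mice with and without CCl4. No log2 difference of theirs passed there, and the signs were not all alike. With 4MU, Orm1 gave 0.34 ± 0.30, Orm2 0.98 ± 0.62 and Apcs -0.30 ± 0.29. With siLuc-LNP, Orm1 gave -0.33 ± 0.30, Orm2 0.16 ± 0.62 and Apcs -0.29 ± 0.29. With siHAS2-LNP, Orm1 gave -0.66 ± 0.30 and Apcs -0.33 ± 0.29. Orm1 stood at 716, 993 and 1102 CPM with 4MU alone, at 820, 755 and 647 with siLuc-LNP and at 809, 1562 and 786 with siHAS2-LNP, against 614 to 698 in 3 of the CCl4 + siLuc-LNP mice and 354 in the other, and 386, 580.1, 662 and 1031 in CCl4 + siHAS2-LNP. Orm2 stood at 45.4, 44.8 and 61.2 CPM with 4MU and at 93.8, 233 and 77.8 with siHAS2-LNP, and in CCl4 + siHAS2-LNP at 12.6, 27.2, 44.0 and 84.4 (-1.70 ± 0.61, adjusted p = 0.0709). Apcs stood at 1306, 1286 and 1257 CPM with 4MU and at 960, 1150, 691 and 1367 in CCl4 + 4MU. It stood at 803, 1168 and 690.3 CPM in siHAS2-LNP and at 562, 668, 841 and 751 in CCl4 + siHAS2-LNP. The siHAS2-LNP mouse that was high in Saa1 was thus also the highest of its group in Orm1, Orm2 and Apcs.

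In all, 5 of 10 members passed between CCl4 and control (Saa3 higher; Saa4, Orm1, Orm2 and Apcs lower), where 33.9% of tested genes passed, with a median of -1.15 over the members and -0.023 over all tested genes. Only 2 mice made up the CCl4 group, and without CCl4 mouse 2 the count was 2 (Saa3 and Saa4 by the same test), with the lone mouse left assumed to vary like the other groups. Without control mouse 2 and siHAS2-LNP mouse 2 the count was 5, with Lcn2 in and Orm2 out (-1.51, adjusted p = 0.109). The summed hepatocyte markers moved with these falls, at 164600 to 205300 CPM in controls and 77820 and 134000 in the CCl4 mice, the lower value in mouse 2. These markers include Alb, Apoa1 and Ttr, which are also in the list of negative acute-phase proteins below, so the sum is not separate from that list. The part of hepatocytes in the falls was not tested. The other arms called 2 members each: Saa3 and Lcn2 with 4MU (23.6% of tested genes passed) and with siLuc-LNP (24.1%), and Saa1 and Saa2 with siHAS2-LNP (12.7%). Without siLuc-LNP mouse 2 or mouse 3 the siLuc-LNP arm called 1, and without CCl4 + siHAS2-LNP mouse 4, the shallowest library, the siHAS2-LNP arm called 4.

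**Figure D3:**
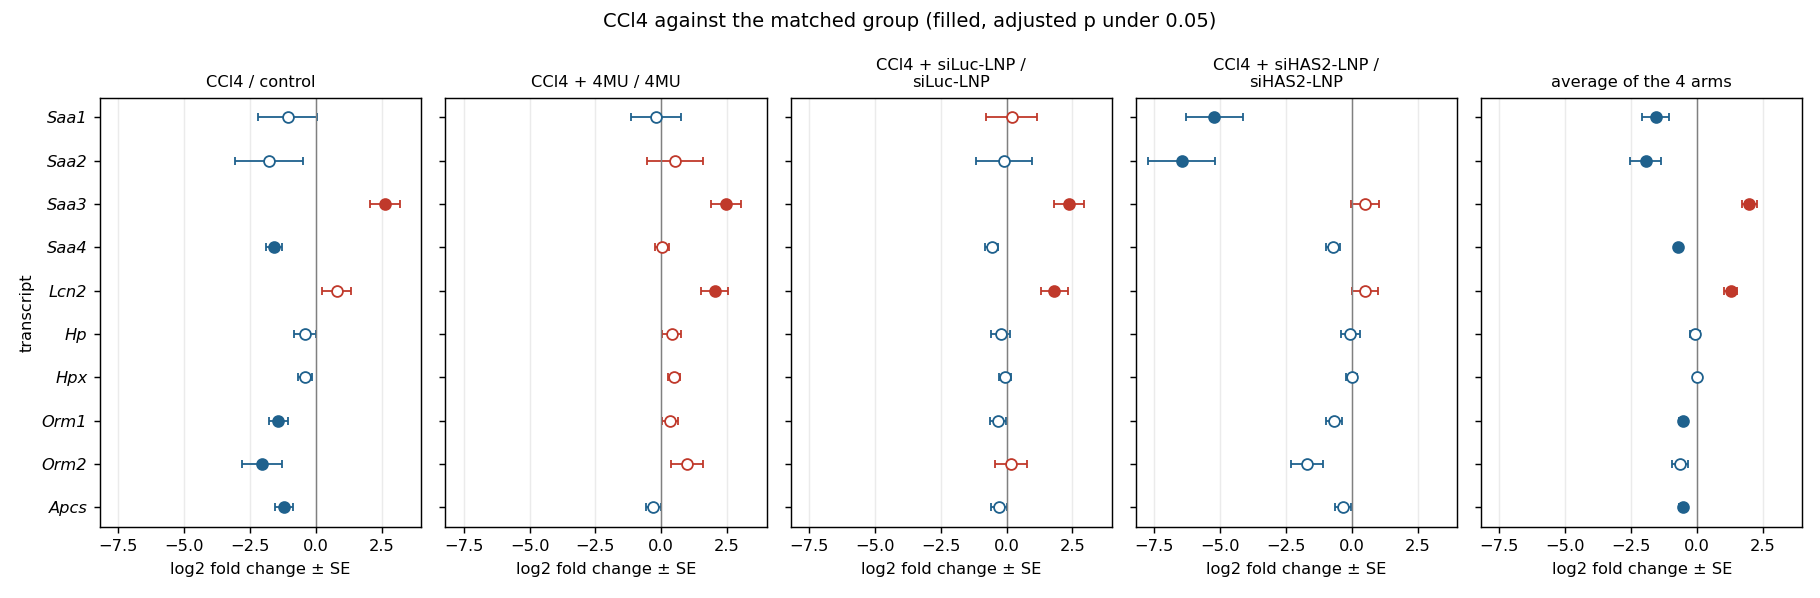
Log2 fold change with its SE (x axis) of each transcript (y axis) for CCl4 against the matched group in each arm and averaged over the arms; filled points passed an adjusted p of 0.05, red is higher and blue lower with CCl4. Saa3 lies near 2.4 to 2.6 in 3 arms and at 0.50 in the siHAS2-LNP arm, where Saa1 (-5.21) and Saa2 (-6.45) lie far to the left.

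The haemoglobin and haem binders did not pass. Hp stood at 5542 ± 2665 CPM (SD, n = 4) in controls and at 5337 and 2985 in the CCl4 mice, and its averaged log2 difference was -0.07 ± 0.19 (adjusted p = 0.761). Hpx stood at 6927 ± 1602 CPM (SD, n = 4) in controls and at 6572 and 3744 in the CCl4 mice, with an averaged difference of -0.003 ± 0.117 (adjusted p = 0.987). In the siLuc-LNP arm Hp stood at 9573, 4070 and 4693 CPM without CCl4 and at 4287, 5730, 7619 and 3294 with it, and Hpx at 5468, 4674 and 5329 without and at 5415, 5778, 5189 and 3617 with it. In the siHAS2-LNP arm Hp stood at 3942, 8797 and 5051 CPM without CCl4 and at 8049, 4913, 4984 and 4792 with it, and Hpx at 4799, 8462 and 5549 without and at 6129, 5636, 5366 and 7758 with it. The groups of both arms overlapped. With 4MU, Hp stood at 6901, 4188 and 5413 CPM without CCl4 and at 5772, 8467, 6256 and 8619 with it, which overlapped. Hpx stood at 5672, 5347 and 6877 CPM without and at 7540, 7777, 8683 and 9055 with CCl4, which did not overlap, and its log2 difference was 0.47 ± 0.23 (adjusted p = 0.137). The sign of both averages over the arms changed between alternatives.

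Saa1 and Saa2, the classical inducible pair, varied widely among uninjured mice, and their calls were lost when single animals were left out. Saa1 stood at 79.1, 526, 138 and 160.2 CPM in controls, at 131 and 82.5 after CCl4, and at 136, 75.1 and 190 in the 4MU group. Saa2 stood at 37.2, 325, 77.9 and 81.98 CPM in controls, at 34.4 and 41.2 after CCl4, and at 28.2, 25.6 and 72.1 in the 4MU group. With both CCl4 and 4MU, Saa1 stood at 79.2, 100.1, 114 and 172 CPM and Saa2 at 31.3, 33.9, 42.2 and 131. These groups overlapped for both genes. In the siHAS2-LNP group the values were 82.9, 2565 and 70.9, and 1 mouse stood far above its group mates, as it did in Saa2 (49.1, 1910 and 48.0). CCl4 + siHAS2-LNP mice held 13.3, 25.0, 14.8 and 46.3 CPM of Saa1 and 2.98, 8.01, 4.70 and 16.8 of Saa2, below every siHAS2-LNP mouse. In that arm Saa1 fell by 5.21 ± 1.08 (adjusted p = 0.00288) and Saa2 fell by 6.45 ± 1.27 (adjusted p = 0.00188). Without siHAS2-LNP mouse 2 the differences were -1.67 (adjusted p = 0.19) and -2.68 (adjusted p = 0.0738), and no member passed in that arm. Without control mouse 2 as well, Saa2 passed (-2.69, adjusted p = 0.0439) and Saa1 did not (-1.67, adjusted p = 0.133). In a fit of only the 2 groups of that arm neither passed, at -5.23 for Saa1 (adjusted p = 0.0933) and -6.47 for Saa2 (adjusted p = 0.0742). The averages over the 4 arms, -1.57 ± 0.51 for Saa1 (adjusted p = 0.0145) and -1.96 ± 0.58 for Saa2 (adjusted p = 0.00824), became -0.68 (adjusted p = 0.119) and -1.01 (adjusted p = 0.0553) without that mouse. They became -0.47 (adjusted p = 0.231) and -0.77 (adjusted p = 0.105) without control mouse 2 as well, and Saa1 alone did not pass without CCl4 mouse 2 (-1.50, adjusted p = 0.0573).

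The pair kept its order in every liver. Per kilobase, Saa1 exceeded Saa2 in 27 of 27 libraries, by 1.13 to 4.17 times with a median of 1.8, and Orm1 exceeded Orm2 in 27 of 27 by 6.29 to 37.9 times. The ranks of the 27 livers were alike within each pair, with a Spearman's rho of 0.902 for Saa1 and Saa2 and 0.876 for Orm1 and Orm2, beside 0.643 for Hp and Hpx, over mice that share groups. The siHAS2-LNP mouse with 2565 CPM of Saa1 had 1910 CPM of Saa2, and the mouse with the lowest Saa1 (7.98, CCl4 + siLuc-LNP mouse 3) had 3.96 of Saa2.

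**Figure D4:**
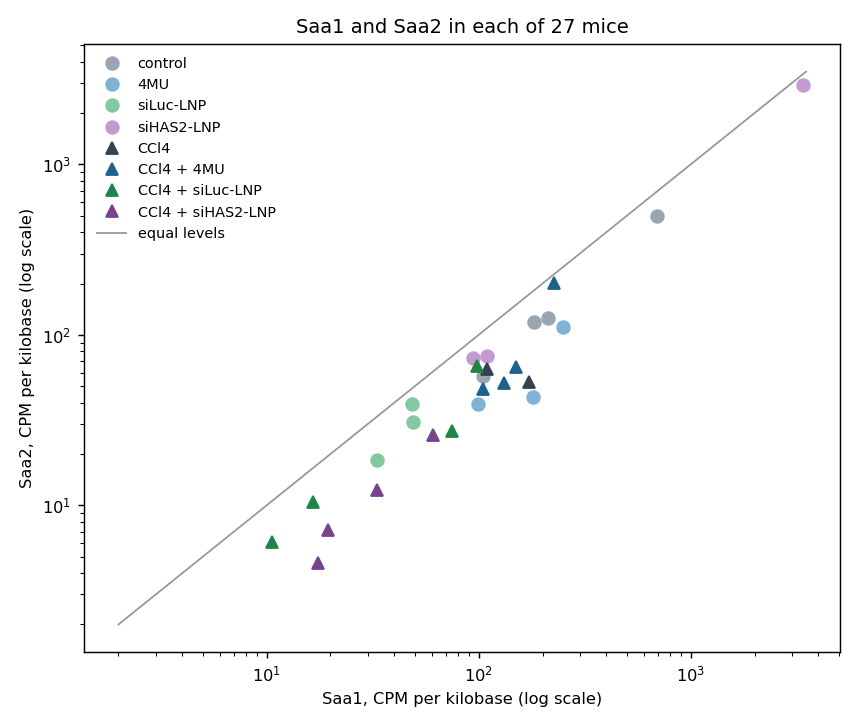
Saa2 (y axis) against Saa1 (x axis), both in CPM per kilobase of transcript on log scales, in each of 27 mice, with circles for groups without CCl4, triangles for groups with it, and a grey line of equal levels. Every mouse lies below the line, 1 siHAS2-LNP mouse lies at the upper right (3388 and 2929), and the CCl4 + siHAS2-LNP mice lie at the lower left (Saa1 of 17.5 to 61.2).

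The second question was whether the agents changed these transcripts in injured liver. With 4MU, Saa4 and Orm1 were higher than with CCl4 alone. Saa4 stood at 294, 439.7, 276 and 324 CPM against 159 and 123, and rose by 1.24 ± 0.31 (log2, adjusted p = 0.00786). Orm1 stood at 1185, 973, 1043 and 1544 CPM against 527 and 419, and rose by 1.33 ± 0.36 (adjusted p = 0.0141). The groups did not overlap in either gene. They were 2 of 10 members, where 18.1% of tested genes passed, and the median was 0.67 over the members and 0.037 over all tested genes.

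Several members had values in the same direction without passing. Orm2 stood at 95.0, 56.9, 74.0 and 171 CPM against 26.2 and 21.1 (2.07 ± 0.77, adjusted p = 0.0638), Hpx at 7540, 7777, 8683 and 9055 against 6572 and 3744 (0.68 ± 0.26, adjusted p = 0.0711), and Hp at 5772, 8467, 6256 and 8619 against 5337 and 2985 (0.81 ± 0.42, adjusted p = 0.179). In all 3 every mouse with 4MU was above both mice without it, and the share of all tested genes that did so was not counted. DESeq2, the tool the study used, also passed Orm2 (adjusted p = 0.0254) and Hpx (adjusted p = 0.0436). Saa3 (-0.49 ± 0.56, adjusted p = 0.566) and Lcn2 (0.51 ± 0.56, adjusted p = 0.553) overlapped with CCl4 alone. Without CCl4 mouse 2, no member passed by edgeR and Saa4 gave 1.04 (adjusted p = 0.164) and Orm1 1.14 (adjusted p = 0.205). Hepatocyte markers moved the same way, 4 of 8 passing with a rise and 0 without CCl4 mouse 2, and their sums were 154900 to 185200 CPM with 4MU. Of all tested genes 18.1% passed in this comparison. Alb, Apoa1 and Ttr are in the hepatocyte list and in that of the negative acute-phase proteins. The part of hepatocytes in these rises was not tested.

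The effect of CCl4 on Saa4 and Orm1 differed between the arm with 4MU and the arm without agent. The interaction was 1.61 ± 0.40 for Saa4 (adjusted p = 0.0277) and 1.78 ± 0.47 for Orm1 (adjusted p = 0.0325), and 3.02 ± 0.98 for Orm2 (adjusted p = 0.0663). These were 2 of 10 members past the threshold, where 5.65% of tested genes passed. Without control mouse 2 and siHAS2-LNP mouse 2 neither passed (both adjusted p = 0.0531, at 1.35 and 1.52). Without CCl4 mouse 2, or without 4MU mouse 2, the count was also 0, and it was 1 without control mouse 2, 4MU mouse 1 or mouse 3, or CCl4 + 4MU mouse 1 or mouse 4.

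**Figure D5:**
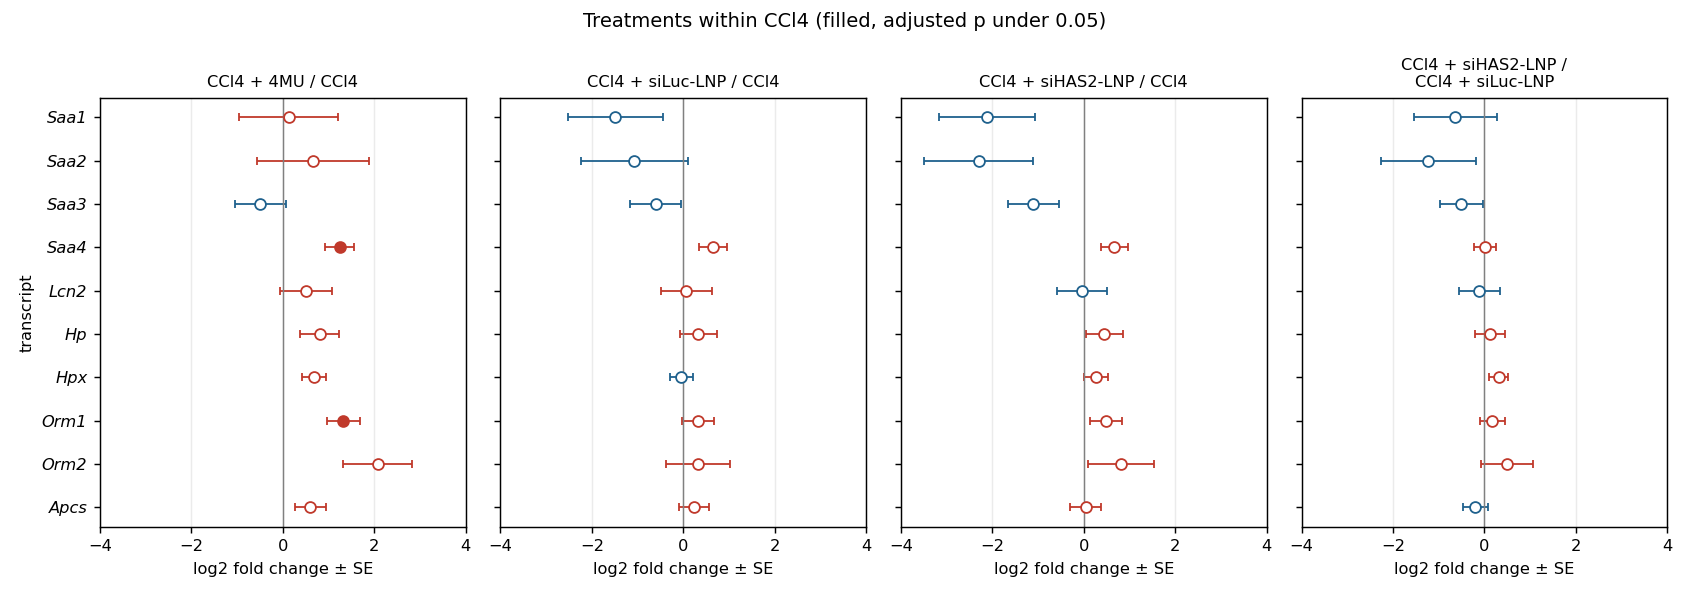
Log2 fold change with its SE (x axis) of each transcript (y axis) for 4 comparisons among mice with CCl4; filled points passed an adjusted p of 0.05, red is higher and blue lower in the first-named group. Saa4 (1.24) and Orm1 (1.33) are the filled points, both in CCl4 + 4MU against CCl4.

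With siRNA nanoparticles, no member passed among the injured mice. Between CCl4 + siLuc-LNP and CCl4, 0 of 10 passed by edgeR, 1 (Saa4) had an unadjusted p under 0.05 and 0 passed by DESeq2. Of the 14114 tested genes 0.262% passed by edgeR and 1981 had an unadjusted p under 0.05. Between CCl4 + siHAS2-LNP and CCl4 the counts were again 0 by edgeR, 1 unadjusted (Saa4) and 0 by DESeq2. Of the tested genes 14.3% passed and 4193 were under 0.05 unadjusted. Between CCl4 + siHAS2-LNP and CCl4 + siLuc-LNP, the comparison with the matched nanoparticle, the counts were 0, 0 and 0. Of the tested genes 1.08% passed and 2327 were under 0.05 unadjusted. The 10 differences of that last comparison lay between -1.23 and 0.49.

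For the inducible pair no difference passed among these groups. Saa1 stood at 56.9, 74.0, 7.98 and 12.5 CPM in CCl4 + siLuc-LNP and at 13.3, 25.0, 14.8 and 46.3 in CCl4 + siHAS2-LNP, all below the lower CCl4 mouse (82.5). The differences from CCl4 were -1.49 ± 1.04 (adjusted p = 0.554) and -2.13 ± 1.05 (adjusted p = 0.181), and between both nanoparticle groups -0.63 ± 0.90 (adjusted p = 0.801). Saa2 stood at 17.9, 42.8, 3.96 and 6.79 CPM in CCl4 + siLuc-LNP, which overlapped with CCl4 (34.4 and 41.2), and at 2.98, 8.01, 4.70 and 16.8 in CCl4 + siHAS2-LNP, below both CCl4 mice. It gave -1.08 ± 1.17 (adjusted p = 0.735), -2.30 ± 1.20 (adjusted p = 0.204) and -1.23 ± 1.04 (adjusted p = 0.613). Saa3 in CCl4 + siHAS2-LNP, at 8.69, 26.0, 24.5 and 33.1 CPM, was below both CCl4 mice (-1.10 ± 0.56, adjusted p = 0.19). Saa4 went the other way. In CCl4 + siHAS2-LNP it was above both CCl4 mice (0.67 ± 0.30, adjusted p = 0.136). In CCl4 + siLuc-LNP it overlapped with them (0.65 ± 0.30, adjusted p = 0.334). Its difference from CCl4 alone thus had the same sign with nanoparticles as with 4MU. Without control mouse 2 and siHAS2-LNP mouse 2, which enter the shared estimate of spread, Saa1 in CCl4 + siHAS2-LNP against CCl4 passed (-2.16, adjusted p = 0.0332).

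The interactions with the nanoparticles gave 0 of 10 members by edgeR, 3 unadjusted and 0 by DESeq2 for siLuc-LNP, where 0.00709% of tested genes passed and 1392 were under 0.05 unadjusted. For siHAS2-LNP they gave 0 by edgeR, 4 unadjusted and 2 by DESeq2, where 6.36% of tested genes passed and 3197 were under 0.05 unadjusted. The 2 were Saa1 (-4.13 ± 1.42, edgeR adjusted p = 0.0859) and Saa2 (-4.66 ± 1.59, edgeR adjusted p = 0.0849), the genes high in siHAS2-LNP mouse 2.

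The third question was what the agents did without injury. Between 4MU and control, 0 of 10 members passed by edgeR, 0 had an unadjusted p under 0.05 and 0 passed by DESeq2. Of the 14114 tested genes 0.00709% passed by edgeR and 956 were under 0.05 unadjusted. Between siLuc-LNP and control, 0 passed by edgeR, 5 were under 0.05 unadjusted and 0 passed by DESeq2. Of the tested genes 0.205% passed and 953 were under 0.05 unadjusted. Saa1 stood at 37.2, 36.9 and 25.1 CPM in siLuc-LNP, below every control (-2.77 ± 1.06, adjusted p = 0.592), Saa2 at 20.1, 25.5 and 12.0 (-2.77 ± 1.17, adjusted p = 0.649), and Orm2 at 42.0, 21.5 and 16.0 (-1.88 ± 0.65, adjusted p = 0.461). Between siHAS2-LNP and siLuc-LNP, where 0.0638% of tested genes passed by edgeR and 1253 were under 0.05 unadjusted, 0 members passed by edgeR. Of the members 5 were under 0.05 unadjusted and 2 passed by DESeq2. The 2 were Saa1 (4.78 ± 1.19, edgeR adjusted p = 0.162) and Saa2 (5.12 ± 1.34, edgeR adjusted p = 0.202). All 3 siHAS2-LNP mice were above all 3 siLuc-LNP mice in Saa1 and Saa2. The same held for Saa3 (1.35 ± 0.58, adjusted p = 0.494) and for Orm2 (93.8, 233 and 77.8 CPM, 2.35 ± 0.68, adjusted p = 0.251). Without control mouse 2 and siHAS2-LNP mouse 2 the differences of Saa1 and Saa2 were 1.22 (adjusted p = 0.73) and 1.34 (adjusted p = 0.748).

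Within a group, the members tended to be highest in 1 mouse. Control mouse 2 and siHAS2-LNP mouse 2 led their groups in 9 of 10 members each, siLuc-LNP mouse 1, CCl4 mouse 1 and CCl4 + 4MU mouse 4 in 8 each, and CCl4 + siLuc-LNP mouse 2 in 7. In the remaining groups 4MU mouse 3 and CCl4 + siHAS2-LNP mouse 4 led in 6 each. The CCl4 group held only 2 mice, so a lead there says less. How often members that vary together would share a leader was not computed. Socs3, an inhibitor of interleukin 6 signalling that this signalling induces, was also highest of its group in control mouse 2 (28.7 CPM, against 6.13 to 10.1 in the other controls), in CCl4 + 4MU mouse 4 (41.6, against 9.65 to 17.0) and in CCl4 + siLuc-LNP mouse 2 (19.3, against 7.01 to 12.6). It was lowest of its group in siLuc-LNP mouse 1 (5.04, against 6.95 and 9.58) and CCl4 mouse 1 (4.62, against 11.5). In siHAS2-LNP mouse 2, the mouse with the highest Saa1, Socs3 was 9.57 CPM, between its group mates (9.29 and 14.8). Its neutrophil markers summed to 49.1 CPM (group mates 23.9 and 28.5), while siLuc-LNP mouse 1, the highest in Hp (9573 CPM), had the highest neutrophil sum of all 27 mice (108).

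The wider acute phase was described from lists. Of 24 other positive acute-phase proteins, 23 were tested and 11 passed in the averaged CCl4 comparison, 5 higher and 6 lower, where 51.7% of tested genes passed, with a median of -0.20. Orm3, the remaining orosomucoid, fell by 1.47 ± 0.27 (adjusted p = 9.05e-05), Hamp (hepcidin, which lowers iron export) fell by 2.03 ± 0.36 (adjusted p = 7.63e-05) and Crp (the other short pentraxin) fell by 0.66 ± 0.09 (adjusted p = 7.41e-07), while Cd14 (a lipopolysaccharide co-receptor, also on macrophages) rose by 1.26 ± 0.17 (adjusted p = 1.43e-06). With 4MU in injured liver 8 of the 23 passed, all higher, where 18.1% of tested genes passed, among them Itih3, a heavy chain that binds hyaluronan (1.25 ± 0.26, adjusted p = 0.00234), and the protease inhibitor Serpina3n (1.01 ± 0.26, adjusted p = 0.00984). Without CCl4 mouse 2 this count was 0, and Serpina3n also did not pass without CCl4 mouse 1 (0.98, adjusted p = 0.0509).

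Negative acute-phase proteins, which normally fall when the positive ones rise, fell more often than they rose. Of 9, 7 passed in the averaged comparison (51.7% of tested genes), 2 higher and 5 lower, with a median of -0.31. The list shares Alb, Apoa1 and Ttr with the hepatocyte markers, so the counts of both lists are not separate. In the comparison with 4MU in injured liver, given below, 18.1% of tested genes passed. Trf, the iron carrier transferrin, rose by 0.39 ± 0.09 (adjusted p = 0.000766). Serpina6, which carries corticosteroids, fell by 1.36 ± 0.25 (adjusted p = 0.000109), Fetub, a fetuin, fell by 1.00 ± 0.14 (adjusted p = 1.39e-06), Igf1, the hepatocyte growth hormone target, fell by 0.84 ± 0.10 (adjusted p = 2.51e-07) and Alb (albumin) fell by 0.31 ± 0.105 (adjusted p = 0.015, and 0.0832 without CCl4 mouse 2). With 4MU in injured liver 4 of 9 passed, all higher, among them Alb (0.82 ± 0.24, adjusted p = 0.0199) and Ahsg, the other fetuin (0.79 ± 0.20, adjusted p = 0.00889), and this count was 0 without CCl4 mouse 2 and 2 without CCl4 + 4MU mouse 2 or mouse 4.

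Among the signals that drive the response, 26 of 29 listed genes were tested, and 13 passed in the averaged comparison, 5 higher and 8 lower, near the 51.7% of all tested genes, with a median of -0.09. Il6 had 0 to 7 counts per library and Tnf 0 to 16, too few for a test of either. Il1b gave -0.49 ± 0.19 (adjusted p = 0.0347), a call lost without 4MU mouse 3 (-0.27, adjusted p = 0.148), and also when any of CCl4 mouse 1 or 2, CCl4 + 4MU mouse 3, siHAS2-LNP mouse 1 or 3, CCl4 + siHAS2-LNP mouse 2 or siLuc-LNP mouse 2 was left out. Lif, a cytokine of the interleukin 6 family, had 0 to 2 counts in the 13 mice without CCl4 and 2 to 54 in the 14 with it. The receptor subunit Osmr rose by 1.65 ± 0.17 (adjusted p = 1.04e-08), while Lifr (-0.86 ± 0.15, adjusted p = 2.62e-05) and the interleukin 1 co-receptor Il1rap (-1.14 ± 0.08, adjusted p = 5.99e-12) fell. Stat3 (adjusted p = 0.126), Cebpb (0.572), Cebpd (0.83) and Socs3 (0.632) did not pass in this comparison. With 4MU in injured liver 5 of 26 passed, 4 higher and 1 lower, near the 18.1% of all tested genes, the higher ones including Il1rap (0.89 ± 0.17, adjusted p = 0.00173), and this count was 0 without CCl4 mouse 2 and 2 without CCl4 + 4MU mouse 2 or mouse 4.

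Receptors and enzymes that handle the members or their cargo completed the lists. Of 12, 8 passed in the averaged comparison, 4 higher and 4 lower, where 51.7% of tested genes passed. Cd163, the macrophage receptor that takes up haptoglobin-haemoglobin complexes, stood apart in the nanoparticle groups. It stood at 18.7, 7.73, 11.6 and 19.9 CPM in controls and at 1.14, 0.80 and 0.44 in siLuc-LNP (-4.21 ± 0.43, adjusted p = 4.9e-06). In injured liver it stood at 4.18 and 9.04 CPM with CCl4 alone, 4.99 to 7.23 with 4MU, 0.17 to 0.62 with siLuc-LNP (-4.20 ± 0.44 against CCl4, adjusted p = 9.34e-06) and 0.24 to 0.59 with siHAS2-LNP (-3.98 ± 0.45, adjusted p = 1.28e-05). Every nanoparticle mouse was therefore below every mouse without nanoparticles, while Hp itself did not pass in these comparisons. Over the 4 arms Cd163 was also lower with CCl4 (-1.12 ± 0.21, adjusted p = 0.0001). Blvrb, a biliverdin reductase, fell by 0.97 ± 0.14 (adjusted p = 2.63e-06), as did Fpr1 (-0.95 ± 0.21, adjusted p = 0.000499) and Fpr2 (-0.65 ± 0.175, adjusted p = 0.00317), formyl peptide receptors of which the latter binds serum amyloid A. Lrp2, an endocytic receptor for lipocalin 2, had 1 to 53 counts per library, rose with CCl4 (1.16 ± 0.345, adjusted p = 0.0066) and was lower with 4MU than with CCl4 alone (-2.24 ± 0.63, adjusted p = 0.0166, and under the count filter without CCl4 mouse 2).

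Markers of other cell types of the liver were also described for the averaged comparison, where 51.7% of tested genes passed. Of 7 cholangiocyte markers 5 passed, all higher, and their sums were 46.9 to 95.5 CPM without and 127 to 716 with CCl4. These sums include Spp1, which is also in the monocyte and macrophage list and had up to 17287 counts in a library. Of 8 stellate cell and myofibroblast markers 7 passed, 6 higher and 1 lower, with sums of 229 to 432 and 343 to 1144 CPM. Of 8 hepatocyte markers 5 passed, 1 higher and 4 lower, and 3 passed without CCl4 mouse 2.

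Genes whose levels ranked the 27 livers most like a member were, by Spearman's rho among 12866 tested genes with a symbol, Ccr3 (0.759), Cd163 (0.739), Orm3 (0.738), Cebpd (0.738) and Nnmt (0.733) for Saa1. For Lcn2 they were Mep1a (0.811), Piwil2 (0.795), Tbc1d19 (0.781), Plpp2 (0.774) and Aph1c (0.774), and those for Hp included Aopep (0.821), Fibp (0.816), Pbxip1 (0.799) and Miip (0.789). These values describe likeness over mice that share groups and are given without a test.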

How the data were processed

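Total liver RNA of 27 mice was sequenced from strand-marking libraries. Per the labels and the study's methods, the authors trimmed reads with Trimmomatic 0.39, aligned them with HISAT2 to the mouse genome, and deposited raw counts per Ensembl gene (Ensembl 105, GRCm39) made by featureCounts, with reads matching several places left out; the strand setting is not given in the sources used here. Symbols came from GENCODE vM39 and matched 54749 of 55414 genes. Counts of all 8 groups entered 1 quasi-likelihood fit in edgeR 4.0.16 (R 4.3.3) with TMM scaling, robust dispersion and a mean of at least 10 counts over the libraries, and all p-values were adjusted over 14114 genes at a threshold of 0.05. Each SE is the log2 fold change divided by the square root of F. Shares of all tested genes are by edgeR, and those by DESeq2 are not given. Levels between genes were compared per kilobase of the canonical transcript. Where groups are said not to overlap, the share of all tested genes that did the same was not counted.

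Groups followed the labels, which number the replicates of each group, and each replicate was taken as a separate mouse. The 10 members and the gene lists were chosen with earlier results of these data known. Named genes were the members, the ligands and factors listed in the text, and from each list the 4 genes with the smallest adjusted p for CCl4 averaged over the arms and the 2 with the smallest in each comparison among CCl4 groups; Alb and further comparisons of these genes were added after their values were seen. No pair of libraries of a group agreed within counting noise (lowest chi-square per degree of freedom 16.8). Alternatives were DESeq2 1.42.0, its size factors in edgeR, no filter, a fit of only the compared groups, a replicate block, each mouse left out in turn, and, for CCl4 averaged over the arms, 14 against 13 mice without arms. Leaving out control mouse 2 and siHAS2-LNP mouse 2 together was added after seeing the data. Calls on simulated counts were checked before the fit. The numbers do not pair the mice, as 17 of 83 pairs of mice with the same number had deviations correlated above 0.1 (median -0.0167), and 60 of 234 pairs with different numbers. 1 of the genes ranked by likeness is not reported here.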

Additional observations from a re-analysis of the deposited data

Results flagged for a closer look

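In groups of 4 mice, a mouse stood apart from the nearest other in 5 of 40 cases examined (10 members in 4 groups). In these the gap, as a share of the group's range, was over Dixon's critical value. For normally distributed values chance passes it in about 1 of 20 groups. The gaps were taken on CPM and not on its log, and the 10 members were measured in the same mice, so this rate is only a guide. Control mouse 2 was the highest in 3 of the 5 cases, with gaps of 0.844 of the range for Saa2 (325 CPM against 37.2, 77.9 and 81.98 in the others), 0.944 for Hp (9535 against 4389) and 0.85 for Apcs (2818 against 1293). CCl4 + 4MU mouse 4 was highest for Saa2, with a gap of 0.891 (131 against 42.2), and CCl4 + siHAS2-LNP mouse 1 for Hp, with a gap of 0.941 (8049 against 4984). Groups of 3 mice, which include the siHAS2-LNP mouse with 2565 CPM of Saa1, were not examined in this way.

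The effect of CCl4 differed between the arm with 4MU and the arm without agent for Saa4, by 1.61 on the log2 scale, and for Orm1, by 1.78 (edgeR, adjusted p = 0.0277 and 0.0325). Both interactions rest on the 2 mice with CCl4 alone, and neither passed without CCl4 mouse 2 (1.41 and 1.60).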

How the results depend on the processing

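The number of the 10 members called held within 1.5 times under most alternatives, and the exceptions follow; unless stated, the cause was not tested. By DESeq2, 4 members passed in CCl4 + siHAS2-LNP against siHAS2-LNP, 4 in CCl4 + 4MU against CCl4, 2 in siHAS2-LNP against siLuc-LNP and 2 in the siHAS2-LNP by CCl4 interaction. In a fit of only the compared groups, 1 passed in CCl4 + siHAS2-LNP against siHAS2-LNP, Saa4 (-0.73, adjusted p = 0.00766) and neither Saa1 nor Saa2, and 1 in the siHAS2-LNP interaction, Saa3 (-2.14, adjusted p = 0.0286). For 14 against 13 mice without arms, DESeq2 passed 4. The 4MU by CCl4 interaction called 1 without a count filter, 1 with the replicate block (Orm1 at 1.69, adjusted p = 0.0523) and 0 without control mouse 2 and siHAS2-LNP mouse 2, a choice under which CCl4 + siHAS2-LNP against CCl4 called 1.

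The replicate block took Orm2 out of CCl4 against control (-1.97, adjusted p = 0.0567) and Orm1 out of the 4MU interaction as above, and changed no other call of a member given in the text. Leaving out 1 mouse at a time gave 2 to 5 members in CCl4 against control, 2 to 2 in the 4MU arm, 1 to 3 in the siLuc-LNP arm, 0 to 4 in the siHAS2-LNP arm, 5 to 8 in the average, 0 to 3 in CCl4 + 4MU against CCl4, 0 to 3 in the 4MU interaction and 0 to 1 in the siHAS2-LNP interaction. Where a single CCl4 mouse was left, it was assumed to vary like the other groups.

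The averaged differences of Hp and Hpx, near 0 and not called, changed sign. Hp was 0.01 and 0.008 for 14 against 13 mice in edgeR and DESeq2, 0.123 without both doubted mice, and -0.183 to 0.046 with 1 mouse left out. Hpx was 0.001 with DESeq2 size factors, 0.007 with the replicate block, 0.001 in DESeq2, 0.037 and 0.035 for 14 against 13 mice, 0.108 without both doubted mice, and -0.108 to 0.088 with 1 mouse left out.

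The CCl4 group held 2 mice, so calls against it rest on few values. Reads that could not be placed between Saa1 and Saa2 or Orm1 and Orm2 were not counted, and whole liver does not part hepatocytes from other cells.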

Other observations

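Among injured mice, a few listed genes of the acute phase passed between CCl4 + siHAS2-LNP and CCl4, where no member did. Of 23 other positive acute-phase proteins 2 passed, both lower, and of 26 signalling genes 3, where 14.3% of all tested genes passed. Against the matched nanoparticle, CCl4 + siLuc-LNP, 0 of 23 positive, 0 of 9 negative and 0 of 26 signalling genes passed by edgeR, where 1.08% of all tested genes passed. There 3, 0 and 5 had an unadjusted p under 0.05, as did 2327 of all 14114 tested genes, and 2, 0 and 2 passed by DESeq2. Cd14, the lipopolysaccharide co-receptor, stood at 7.23 to 8.65 CPM in CCl4 + siHAS2-LNP and at 18.0 and 26.7 in CCl4 (-1.48 ± 0.35, edgeR adjusted p = 0.00796). In the siHAS2-LNP arm the difference of Cd14 with CCl4 was small (-0.13 ± 0.33, adjusted p = 0.848), against 2.1 ± 0.355 (adjusted p = 7.06e-05) between CCl4 and control, and the interaction was -2.23 ± 0.49 (adjusted p = 0.0103). Il1rn, the interleukin 1 receptor antagonist, gave -1.40 ± 0.46 (adjusted p = 0.0439), a call lost when any 1 of the 6 mice compared was left out. Of the signalling genes, Il1rap was higher (1.00 ± 0.17, adjusted p = 0.00114) and Osmr lower (-1.08 ± 0.34, adjusted p = 0.0338), and Igf1, a negative acute-phase gene, was higher (0.86 ± 0.23, adjusted p = 0.0157).

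The call of Cd14 in CCl4 against control held with any 1 mouse left out (highest adjusted p = 0.00587). The calls of CCl4 + siHAS2-LNP against CCl4 and the Cd14 interaction were lost without CCl4 mouse 2. Without it Cd14 gave -1.20 (adjusted p = 0.176) and an interaction of -1.95 (adjusted p = 0.0959), Il1rap 0.88 (adjusted p = 0.0561), Osmr -0.69 (adjusted p = 0.454) and Igf1 0.75 (adjusted p = 0.223). Osmr also did not pass without CCl4 + siHAS2-LNP mouse 1 or mouse 3, and the Cd14 interaction not without control mouse 2 and siHAS2-LNP mouse 2 together (-2.13, adjusted p = 0.0503). In CCl4 + siHAS2-LNP against CCl4 14.3% of all tested genes passed. Markers of monocytes and recruited macrophages, which also carry Cd14, had a median of -0.54 there, with 1 of 10 passing. Of 9 Kupffer cell markers 5 passed, all lower, with a median of -0.98 and sums of 195 to 249 CPM against 422 and 435, and 2 passed without CCl4 mouse 2. Of 8 stellate cell and myofibroblast markers 3 passed, all lower, and 0 without CCl4 mouse 2. The part of these cells was not tested.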
